A study of Mus musculus with 6 samples.

Results

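The genes described here encode 4 families of ligand-activated nuclear receptors: the peroxisome proliferator-activated receptors (PPARs; Ppara, Ppard and Pparg), the retinoid X receptors (RXRs; Rxra, Rxrb and Rxrg), the thyroid hormone receptors (TRs; Thra and Thrb) and the liver X receptors (LXRs; Nr1h2, encoding LXRβ, and Nr1h3, encoding LXRα). They were chosen by symbol as members of these families, with earlier results of these data known, and are 10 of the 24411 genes listed in the count table. All 10 were among the 12828 genes that passed the filter on low counts and were tested. RNA-seq of polyadenylated RNA was performed on the soleus (Sol), a slow fiber-dominant leg muscle, from 3 WT and 3 LSD1-mKO mice after voluntary wheel running (VWR), with 1 library per mouse. LSD1, encoded by Kdm1a, is a histone demethylase that needs FAD. Per the study's methods, WT mice carried floxed Lsd1 alleles without Cre, whereas LSD1-mKO mice were Lsd1 flox/flox with a tamoxifen-inducible CreERT2 driven by a human ACTA1 promoter, which is active in differentiating and differentiated muscle cells, so the other cells of the tissue keep LSD1. All mice were C57BL/6, began VWR at 8 weeks of age and had the wheel for 38 days. Mice of both genotypes received tamoxifen at 75 mg/kg on 5 consecutive days after 3 days of familiarization, and were kept off the wheel and fasted for some hours before the muscle was taken. No sedentary mice are analysed here, so each comparison is between genotypes within the trained state.

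These receptors are transcription factors that bind DNA through a pair of zinc fingers. PPARs sense fatty acids and their derivatives, TRs bind thyroid hormone and LXRs bind oxysterols. Each of these binds DNA mostly as a heterodimer with an RXR, whose own ligand is 9-cis retinoic acid, on repeats of the hexamer AGGTCA. In skeletal muscle the PPARs are known for the control of fatty acid oxidation, the TRs for myosin and calcium pump genes, and the LXRs for cholesterol export and lipogenesis.

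The members have a similar coding sequence for the DNA-recognition helix, which is shown here because all 4 families have it. Whether reads can be assigned to a single member depends on the full transcripts, which are compared after the helix. The 36 bases from the start of the helix motif are given 5′ to 3′ on the coding strand of each gene, read from its longest coding transcript (GENCODE vM21, GRCm38), and capitals mark the 19 bases that are identical in all 10 genes. The stretch crosses an intron in Ppara (chr15:85787254-85788999, plus strand, exons 4 and 5), Ppard (chr17:28295481-28297106, plus strand), Pparg (chr6:115441647-115450964, plus strand), Thra (chr11:98757009-98760896, plus strand) and Thrb (chr14:18002614-18008589, plus strand). It lies within 1 exon in Rxra (chr2:27741787-27741822, plus strand), Rxrb (chr17:34034045-34034080, plus strand), Rxrg (chr1:167627315-167627350, plus strand), Nr1h2 (chr7:44552082-44552117, minus strand) and Nr1h3 (chr2:91191910-91191945, minus strand).
Ppara: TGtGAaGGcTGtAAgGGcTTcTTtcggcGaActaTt
Ppard: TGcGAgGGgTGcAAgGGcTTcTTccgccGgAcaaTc
Pparg: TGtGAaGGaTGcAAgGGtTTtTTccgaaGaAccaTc
Rxra: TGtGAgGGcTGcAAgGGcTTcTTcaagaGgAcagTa
Rxrb: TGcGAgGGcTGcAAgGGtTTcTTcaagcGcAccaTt
Rxrg: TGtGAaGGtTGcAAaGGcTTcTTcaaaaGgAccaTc
Thra: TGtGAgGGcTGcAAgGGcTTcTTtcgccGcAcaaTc
Thrb: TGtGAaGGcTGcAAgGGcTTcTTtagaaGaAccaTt
Nr1h2: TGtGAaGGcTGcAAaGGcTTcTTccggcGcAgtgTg
Nr1h3: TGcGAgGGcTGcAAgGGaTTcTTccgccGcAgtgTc
Within a family, pairs of genes shared 27 to 30 of the 36 bases (8 pairs), and pairs from different families shared 23 to 32 (37 pairs), so the helix alone did not sort the genes by family. The longest run of identical bases between any pair of the full transcripts was 49, in Rxrg and Thrb, which is shorter than the 75-base reads. Outside the members, 195 of the 2378 possible 75-base reads of Thra (8.2%) also match Nr1d1, which encodes the clock repressor REV-ERBα and overlaps the 3′ end of Thra on the opposite strand.

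The hexamer AGGTCA was next searched on both strands of the RefSeq promoters (GRCm38.p6, 250 bases before to 50 bases after each gene start), to see which members carry the site that their own proteins recognise. It was present in 5 of the 16 promoters listed for the members (31.25%), which belong to Pparg, Rxra, Rxrg and Thrb, against 5340 of all 32851 promoters (16.3%). Thra has no entry. The 30-base windows follow, with the hexamer, or its reverse complement TGACCT in the first Rxra window, in capitals. They lie at chr6:115361104-115361133 and chr6:115362328-115362357 (Pparg, separate starts), chr2:27709193-27709222 and chr2:27709232-27709261 (Rxra, the same start), chr1:167618165-167618194 (Rxrg) and chr14:17660764-17660793 (Thrb), all on the plus strand.
Pparg, 28 bases upstream: agccgccgcctcAGGTCAgagtcgccccgg
Pparg, 9 bases upstream: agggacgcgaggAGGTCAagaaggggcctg
Rxra, 87 bases upstream: tagaaatgggtgTGACCTgagtaatggtca
Rxra, 48 bases upstream: gggtggcaggaaAGGTCAgtcactctctgt
Rxrg, 88 bases upstream: atcggggttgaaAGGTCAgctgaaagcttc
Thrb, 184 bases upstream: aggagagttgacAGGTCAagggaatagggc
The full PPAR and RXR element, a direct repeat of AGGTCA with 1 base of any kind between the copies, was found in 13 of the 32851 promoters (0.04%). The TR and LXR element, the same repeat with 4 bases between, was found in 5 (0.015%). Neither was in a promoter of a member. Each of these longer elements contains the hexamer, real sites vary from these letters, and such elements often lie outside promoters, so these matches are a description of the letters only.

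Libraries held 8940206 to 13798059 estimated counts. Kdm1a, in counts scaled by library size and TMM factor (CPM), was at 40.5, 38.2 and 33.6 in WT mice and at 14.6, 16.6 and 16.6 in LSD1-mKO mice, with no overlap. It fell in LSD1-mKO with a log2 fold change of -1.23 (adjusted p = 0.0160, edgeR quasi-likelihood test with Benjamini-Hochberg adjustment). The adjusted p was between 0.111 and 0.209 when WT mouse 2 or any LSD1-mKO mouse was left out, with log2 fold changes of -1.17 to -1.26. Only 2 of the 12828 genes passed an adjusted p of 0.05, 1 in each direction. The summed CPM of 10 muscle markers was 102230 to 134942 in WT and 112149 to 120958 in LSD1-mKO. The 7 fibroblast markers, with sums of 1336, 3452 and 4405 CPM in WT mice 1 to 3 and 2808, 1368 and 1496 in LSD1-mKO mice 1 to 3, and the 10 macrophage markers, with sums of 152 to 440 in WT and 146 to 282 in LSD1-mKO, varied several-fold within WT. Every marker had counts in some library, but the adipocyte marker Adrb3 and the macrophage marker Fcgr1 were at 0 CPM in WT mouse 1. WT mouse 1 was low for both lists, and LSD1-mKO mouse 1 was the highest of its group for both. In bulk tissue, fewer cells of a type and less RNA per cell cannot be told apart.

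None of the 10 receptor genes passed an adjusted p of 0.05 between the genotypes, against 0.0156% of all tested genes. A single member, Rxrg, had an unadjusted p under 0.05, against 6.4% of all tested genes. None had groups that did not overlap in CPM, against 12.7%. The fitted value was above 0 for 7 members and below 0 for 3, where 45.2% of all tested genes were above 0. The median of the members on the log2 scale was 0.06, and that over all tested genes was -0.02. For 8 of the 10 the 95% interval of the fold lay within 1.5-fold of no change, with bounds from 0.729 to 1.49. Only the intervals of Ppara and Rxrg reached further. Each edgeR p-value weighs the genotype difference against the variation between mice, which is estimated with information shared over all tested genes.

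**Figure D1:**
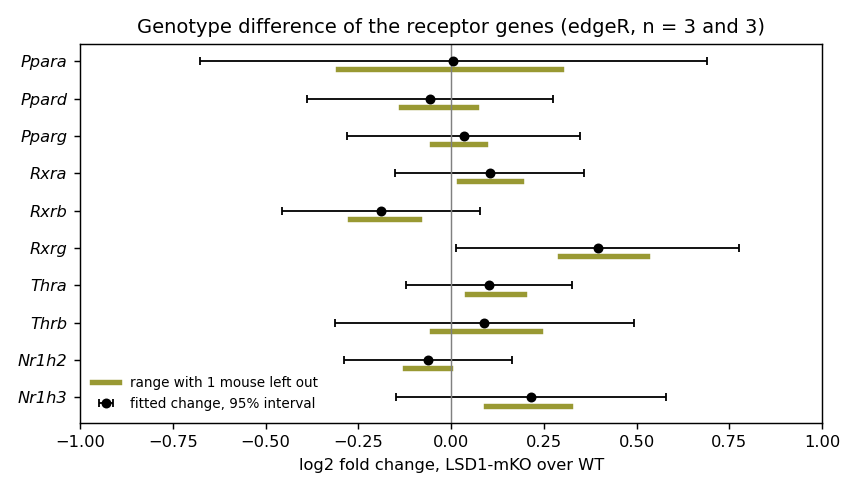
Fitted log2 fold change of each receptor gene (horizontal axis, LSD1-mKO over WT, with 0 marking equal levels). Points and thin bars are the edgeR estimate with its 95% interval, and thick bars the range of estimates when each of the 6 mice was left out in turn. Only the interval of Rxrg, 1.01 to 1.71 on the fold scale, did not include 0, and Ppara had the widest one.

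Ppara, which encodes the PPAR best known for fasting-induced fatty acid oxidation, was the most variable receptor gene and had almost the same mean in both genotypes. It was at 172, 86.8 and 120 CPM in WT mice 1 to 3 and at 120, 84.5 and 176 CPM in LSD1-mKO mice 1 to 3. WT mouse 2 and LSD1-mKO mouse 2 were low, and WT mouse 1 and LSD1-mKO mouse 3 were high, at about the same levels, so the groups overlapped over almost their whole range. The means were 126 ± 43.1 and 127 ± 46.3 CPM (SD, n = 3 each). The fitted fold was 1.00, with a 95% interval of 0.625 to 1.61 (adjusted p = 0.997, edgeR with Benjamini-Hochberg adjustment). The SD of Ppara within genotypes was 0.51 on the log2 scale, larger than that of 97.0% of the 8485 genes with a mean of at least 10 CPM, whose median SD was 0.14. The sign of its fitted change turned with the mice included, from -0.30 without LSD1-mKO mouse 3 to 0.29 without WT mouse 1.

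Ppard, the PPAR tied to endurance and oxidative fibers, was at 47.3, 38.3 and 35.9 CPM in WT and at 32.1, 42.1 and 42.4 CPM in LSD1-mKO. The single highest mouse was WT and the single lowest was LSD1-mKO, and the groups overlapped. Its fitted log2 fold change was -0.06 with an SE of 0.14 and an interval of 0.764 to 1.21 for the fold (adjusted p = 0.953, edgeR with Benjamini-Hochberg adjustment). Pparg, the adipocyte PPAR, was low in Sol and steady, at 11.5, 10.3 and 10.1 CPM in WT and at 9.99, 12.2 and 10.3 CPM in LSD1-mKO. All 6 mice lay between 9.99 and 12.2 CPM. The summed CPM of 9 adipocyte markers was 598 to 679 in WT and 580 to 656 in LSD1-mKO. Most of that sum was Fabp4, at 374 to 460 CPM, so it says little about the lower markers. In WT mice 1 to 3, Plin1 was at 4.46, 9.45 and 11.9 CPM and Adipoq at 13.3, 17.5 and 16.5 CPM. The interval for the fold of Pparg was 0.823 to 1.27 (adjusted p = 0.971, edgeR with Benjamini-Hochberg adjustment). Its 6 counts were between 95 and 168.

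Among the RXRs, the common partners, Rxra was at 124, 125 and 104 CPM in WT and at 111, 135 and 133 CPM in LSD1-mKO. LSD1-mKO mice 2 and 3 were the highest, and LSD1-mKO mouse 1 lay between WT mice. The fitted log2 fold change of Rxra was 0.10 with an SE of 0.11 (interval of the fold 0.900 to 1.28). Rxrb, a widely expressed RXR, was at 58.3, 50.6 and 45.3 CPM in WT and at 41.7, 49.4 and 44.1 CPM in LSD1-mKO. WT mice 1 and 2 were above every LSD1-mKO mouse, whereas WT mouse 3 was within their range. Its log2 fold change was -0.19 with an SE of 0.12 (interval of the fold 0.729 to 1.06), the lowest fitted value among the members (adjusted p = 0.781, edgeR with Benjamini-Hochberg adjustment). The two-sided exact permutation p was 0.2, where 0.1 is the smallest that 3 against 3 mice can give.

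Rxrg, the RXR that is enriched in skeletal muscle and a few other tissues, had the highest fitted value. It was at 12.5, 10.2 and 9.06 CPM in WT and at 15.5, 11.8 and 14.2 CPM in LSD1-mKO, from 102 to 210 counts per library. LSD1-mKO mice 1 and 3 were above every WT mouse, and LSD1-mKO mouse 2 was below WT mouse 1. On the TPM scale, which has another total per library, LSD1-mKO mouse 2 at 12.4 TPM was just above WT mouse 1 at 12.1 TPM, and the groups did not overlap. The means were 10.6 ± 1.78 and 13.9 ± 1.90 CPM (SD, n = 3 each), a fold of 1.31 with an interval of 1.01 to 1.71. The unadjusted p was 0.0437 and the adjusted p 0.766 (edgeR with Benjamini-Hochberg adjustment), and the exact permutation p was 0.2. The fitted value stayed above 0 with each mouse left out, between 0.29 and 0.53 on the log2 scale. The unadjusted p passed 0.05 neither with DESeq2 nor when WT mouse 2, WT mouse 3, LSD1-mKO mouse 1 or LSD1-mKO mouse 3 was left out.

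Thra, which encodes the main TR of muscle, was at 52.0, 64.0 and 55.2 CPM in WT and at 62.4, 62.2 and 59.2 CPM in LSD1-mKO. The LSD1-mKO mice were close together and all lay inside the WT range. Its log2 fold change was 0.10 with an SE of 0.10 (interval of the fold 0.919 to 1.25). The library protocol does not state a strand, so reads from the stretch that Thra shares with Nr1d1, 263 of its 4614 exonic bases, cannot be told apart. Nr1d1 was at 55.2, 147 and 78.3 CPM in WT and at 180, 97.6 and 121 CPM in LSD1-mKO, and its part in the values of Thra was not tested. Thra and Nr1d1 shared their highest WT mouse, mouse 2, and their lowest, mouse 1, and LSD1-mKO mouse 1 was the highest of its group for both. The lowest LSD1-mKO mouse was mouse 3 for Thra and mouse 2 for Nr1d1.

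Thrb, the other TR, was at 36.3, 30.2 and 24.1 CPM in WT and at 25.6, 34.7 and 35.8 CPM in LSD1-mKO. Each group spanned nearly the same range. The log2 SD of Thrb within genotypes, 0.28, was the next largest after Ppara and exceeded that of 88.3% of the 8485 genes. The interval of its fold was 0.804 to 1.41 (adjusted p = 0.936, edgeR with Benjamini-Hochberg adjustment). Thrb is also among the members whose sign turned with 1 mouse left out, to -0.05 without WT mouse 3.

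For the LXRs, Nr1h2 was at 57.6, 63.7 and 55.8 CPM in WT and at 51.8, 61.7 and 56.1 CPM in LSD1-mKO. Only LSD1-mKO mouse 1 was below the WT range. The interval of the fold, 0.819 to 1.12, was among the narrowest of the members. Nr1h3, which is also abundant in macrophages and adipocytes, was at 13.1, 14.3 and 10.5 CPM in WT and at 12.5, 15.8 and 15.7 CPM in LSD1-mKO. LSD1-mKO mice 2 and 3 were above every WT mouse, and LSD1-mKO mouse 1 was within the WT range. The summed macrophage markers were at 152, 440 and 375 CPM in WT and at 282, 146 and 219 CPM in LSD1-mKO, so that the highest sum and the highest Nr1h3 were in the same mouse in WT and not in LSD1-mKO, and their part in the values of Nr1h3 was not tested. The log2 fold change of Nr1h3 was 0.21 with an SE of 0.16 (interval of the fold 0.901 to 1.49, adjusted p = 0.823, edgeR with Benjamini-Hochberg adjustment).

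Levels of different genes were compared as TPM, which divides by transcript length. Over the 6 mice Ppara was first at a mean of 81.5 TPM, followed by Nr1h2 at 64.2, Rxra at 55.1, Thra at 53.6 and Rxrb at 40.6 TPM. Ppard at 26.7 TPM stood in the middle. The lowest were Nr1h3 at 15.5, Rxrg at 12.8, Pparg at 11.2 and Thrb at 11.1 TPM. Each family except the RXRs thus had a single main subtype in Sol, namely Ppara, Thra and Nr1h2, and the RXRs had a pair, Rxra and Rxrb. That pair was less even with the union of exons as the length, at 69.8 TPM for Rxra and 37.8 for Rxrb. The family sums and subtype shares below use the longest coding transcript.

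**Figure D2:**
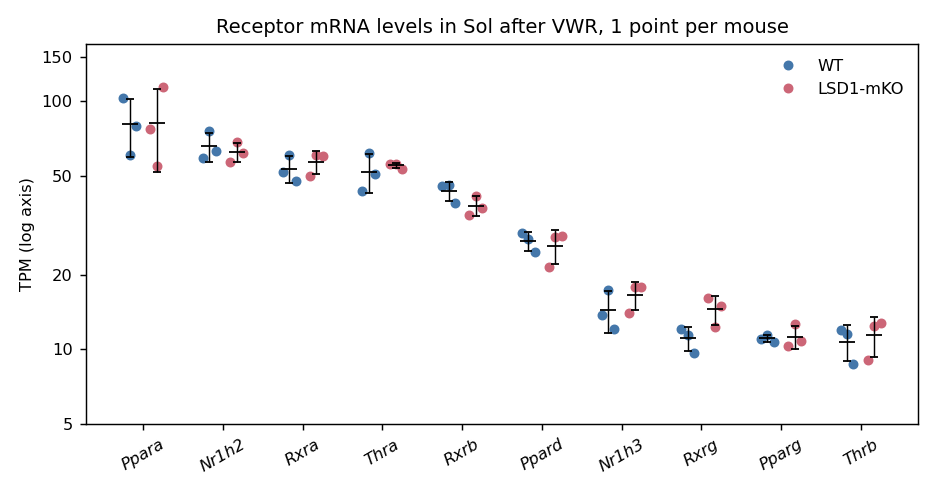
TPM of each receptor gene (vertical log axis) in the 3 WT and 3 LSD1-mKO mice, 1 point per mouse, with the mean and SD of each genotype in black. Genes are ordered by their mean over 6 mice, from Ppara at 81.5 to Thrb at 11.1 TPM, and the genotypes overlap for all but Rxrg, whose lowest LSD1-mKO mouse, at 12.4 TPM, is just above the highest WT mouse, at 12.1 TPM.

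Neighbours in this order were compared by an exact two-sided sign-flip permutation test of log2 TPM within mice (9 pairs, Benjamini-Hochberg adjustment, smallest possible p 0.0313). Nr1h2 was above Rxra, Rxrb above Ppard, and Ppard above Nr1h3 in 6 of 6 mice (exact p = 0.0313 and adjusted p = 0.0938 for each). The other 6 neighbours changed places in at least 1 mouse. Rxra and Thra, with a ratio of 1.03, and Pparg and Thrb, with a ratio of 1.01, each kept the order in 3 of 6 mice. No neighbours passed 0.05 after adjustment. The order was taken from the same 6 mice, and the test does not measure the effect of the length chosen. The order depended on the length assigned to each gene, because with the union of exons in place of the longest coding transcript only 3 of the 10 kept their rank. Rxra was then above Nr1h2 in 6 of 6 mice, the reverse of the order above, and Nr1h3 was above Ppard in mean TPM, at 16.97 and 16.4.

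Summed over subtypes, the PPARs were at 119 ± 22.3 TPM in WT and 119 ± 30.5 TPM in LSD1-mKO (SD, n = 3 each). The RXRs were at 108 ± 10.8 and 109 ± 7.43 TPM, the TRs at 62.8 ± 9.64 and 66.6 ± 1.80 TPM, and the LXRs at 80.3 ± 11.3 and 79.0 ± 7.70 TPM. The groups overlapped for each family. Since the other families share the RXRs as partners, the ratio of their summed mRNA to that of the RXRs was also computed, and it was 2.44 ± 0.165 in WT and 2.43 ± 0.244 in LSD1-mKO (exact permutation p = 1.0).

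Within the families, the shares of Rxrb and of the LXR pair did not overlap between genotypes, while all others did. The shares of a family sum to 100% and so are not independent. Rxrb made up 41.5%, 38.9% and 40.3% of RXR TPM in WT mice and 34.5%, 36.3% and 33.1% in LSD1-mKO mice. Every LSD1-mKO mouse was below every WT mouse, with means of 40.2% ± 1.34 and 34.6% ± 1.62 (SD, n = 3 each). Rxrg made up 11.1%, 9.73% and 10.05% in WT and 16.0%, 10.8% and 13.3% in LSD1-mKO, which overlapped. Its mean share was higher by 3.08 percentage points in LSD1-mKO, and by 1.76 points without LSD1-mKO mouse 1. Rxra made up 49.5% ± 2.03 and 52.0% ± 2.22. Nr1h3 made up 18.9%, 18.7% and 16.1% of LXR TPM in WT and 19.8%, 20.7% and 22.3% in LSD1-mKO, with no overlap. For Rxrb and for Nr1h3 the exact permutation p was 0.1, the smallest possible, and 0.4 after Benjamini-Hochberg adjustment over 8 shares. That test cannot pass 0.05 with 3 against 3 mice, so whether these shares differ beyond the spread between mice was not settled by it. The other 6 shares had adjusted values of 0.533 or more by the same exact test. Ppara was the main PPAR in every mouse, at 57.1% to 74.4% of PPAR TPM.

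**Figure D3:**
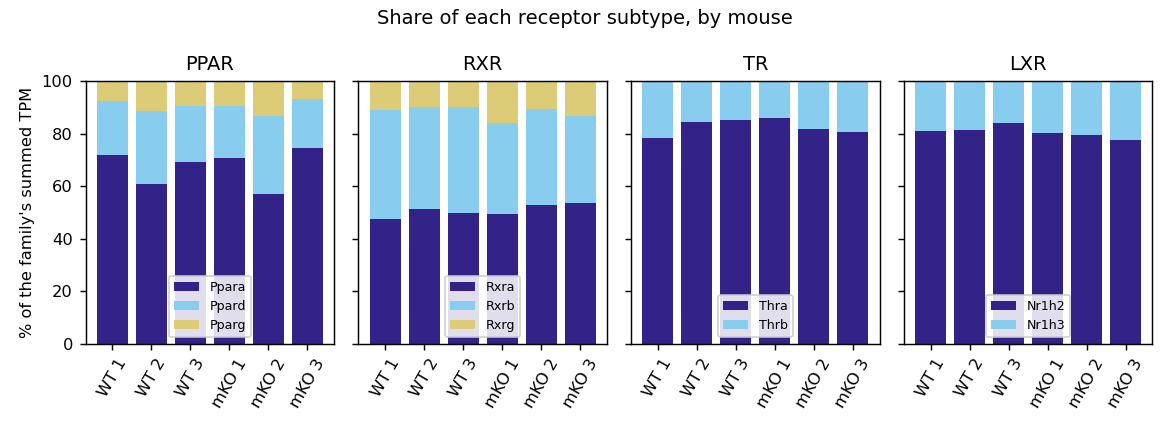
Share of each subtype in the summed TPM of its family (vertical axis, percent), with 1 stacked bar per mouse (mKO, LSD1-mKO). Rxrb takes 38.9% to 41.5% of RXR TPM in WT mice and 33.1% to 36.3% in LSD1-mKO mice, whereas the shares of the PPARs and TRs overlap between genotypes.

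The genes that act around these receptors were described as 8 lists of 115 genes in all, 100 of them tested. None passed an adjusted p of 0.05 (smallest 0.281, edgeR with Benjamini-Hochberg adjustment). At an unadjusted p under 0.05 there were 4 (4%, against 6.4% of all tested genes), and 7 had groups that did not overlap (7%, against 12.7%). Those shares are not above the background. Fitted values were above 0 for 48 genes and below 0 for 52, where 45.2% of all tested genes were above 0. The counts of signs in single lists below are to be read beside that share.

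**Figure D4:**
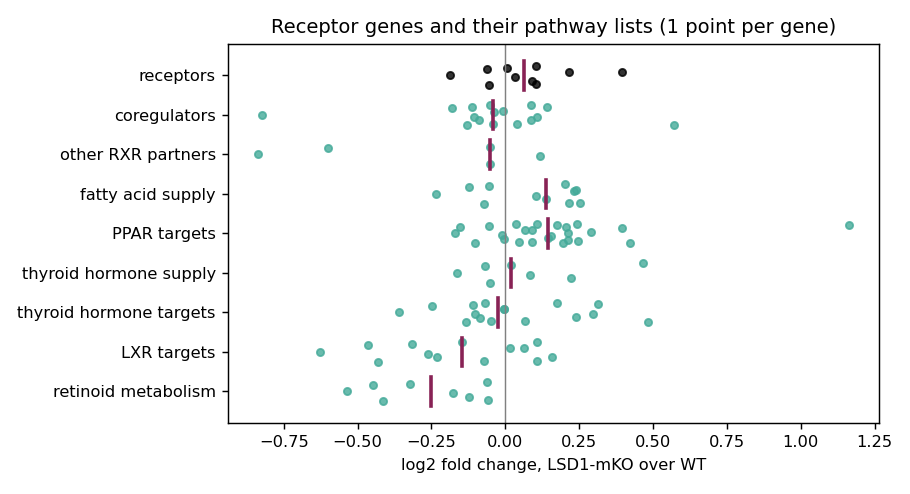
Fitted log2 fold change of each tested gene (horizontal axis, LSD1-mKO over WT), with 1 point per gene on separate lines for the 10 receptor genes and the 8 lists, and a vertical bar at each median. The medians lie between -0.25 for retinoid metabolism and 0.14 for PPAR targets, and Acot1 at 1.16 is the farthest point to the right.

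Known PPAR targets had fitted values above 0 for 19 of 25 tested genes, a median of 0.14 on the log2 scale and an unadjusted p under 0.05 for 1. Fgf21 had 0 counts in every library. The gene at that p was Acot1, an acyl-CoA thioesterase induced by PPARα, at 9.39, 5.62 and 6.27 CPM in WT and at 15.5, 13.3 and 18.6 CPM in LSD1-mKO. Every LSD1-mKO mouse was above every WT mouse, and the fold was 2.24 with an interval of 1.59 to 3.16 (unadjusted p = 5.69e-04, adjusted p = 0.281, edgeR with Benjamini-Hochberg adjustment). The counts of Acot1 were not whole numbers in any library, and 26.4% of its possible 75-base reads match paralogs or an overlapping gene, so its value is uncertain. DESeq2, at a log2 fold change of 1.17, gave it an adjusted p of 0.00270, and over the other alternatives the adjusted p was at least 0.0603. The sum of Acot1 and its close paralog Acot2, computed after their values were seen, was 55.8 CPM in WT and 67.6 CPM in LSD1-mKO, a log2 ratio of 0.28.

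Pdk4, which spares glucose by inhibiting pyruvate dehydrogenase, was the highest PPAR target, at 2647, 972 and 2192 CPM in WT and at 3133, 1847 and 2656 CPM in LSD1-mKO. The groups overlapped. Its lowest WT and its lowest LSD1-mKO mouse, mouse 2 in each, were also the lowest of their groups for Ppara. The highest WT mouse was mouse 1 for both genes, but the highest LSD1-mKO mouse was mouse 1 for Pdk4 and mouse 3 for Ppara. Hadhb, of mitochondrial β-oxidation, and Cat, the peroxisomal catalase, had log2 fold changes of 0.24 and 0.17, each with overlapping groups. Unlike Ppara, both were lowest in WT mouse 3 and LSD1-mKO mouse 1 of their groups. The hexamer AGGTCA was in 11 of 23 promoters of PPAR targets (47.8%), Cat among them and not Acot1, Hadhb or Pdk4. It was in 2 of 17 promoters of thyroid hormone targets and 0 of 16 of LXR targets, against 16.3% of all promoters. As for the members, these matches describe the letters only.

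**Figure D5:**
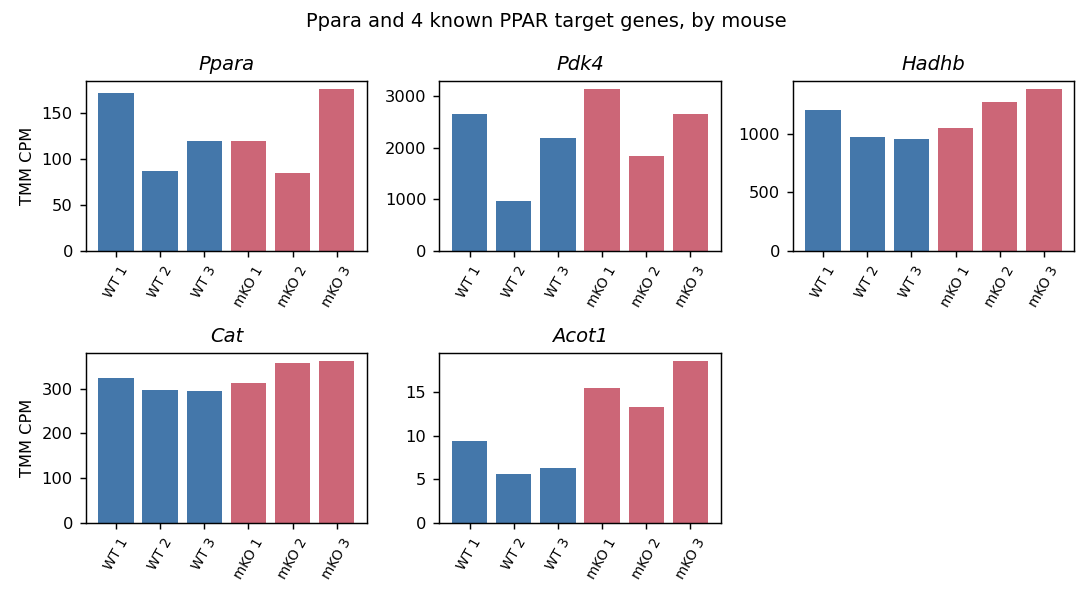
TMM CPM (vertical axes, each from 0) of Ppara and 4 PPAR target genes in the 3 WT (blue) and 3 LSD1-mKO mice (red, mKO). Ppara and Pdk4 are lowest in mouse 2 of each genotype, but in LSD1-mKO they are highest in different mice. Hadhb and Cat, lowest in WT mouse 3 and LSD1-mKO mouse 1, overlap between genotypes. Every LSD1-mKO mouse is above every WT mouse for Acot1.

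Genes that supply fatty acids to the PPARs, such as the transporter Cd36 and the lipase Lpl, had 7 of 11 fitted values above 0, with a median of 0.14 and none at an unadjusted p under 0.05. Cd36 was at 1184, 1007 and 1050 CPM in WT and at 1183, 1231 and 1447 CPM in LSD1-mKO, and only LSD1-mKO mouse 1 was within the WT range. Log2 fold changes were 0.23 for Lpl, 0.24 for the fatty acid carrier Fabp3, 0.20 for the lipase activator Abhd5 and 0.22 for the acyl-CoA synthetase Acsl1. Without WT mouse 1, fitted values were above 0 for 22 of 25 PPAR targets and again for 7 of 11 fatty acid supply genes. With every mouse, 1 of 25 PPAR targets and 0 of 11 fatty acid supply genes were above WT at an unadjusted p under 0.05. The share over all genes was 3.52%. Without WT mouse 1 these counts rose to 10 of 25 and 6 of 11, against 6.43% of all genes. None of those genes passed after adjustment. With each mouse left out, the median ranged from 0.07 to 0.21 for PPAR targets, lowest without LSD1-mKO mouse 3, and from 0.04 to 0.25 for fatty acid supply, lowest without WT mouse 3.

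Of the genes linked to the TRs, those for hormone transport and conversion had a median of 0.02 over 7 tested genes, with none at an unadjusted p under 0.05. Log2 fold changes were 0.22 for the transporter Slc16a10, -0.16 for Slc7a5 and 0.47 for Crym, which encodes a protein that binds the hormone in the cytosol. Dio1 had 0 counts in every library. Thyroid hormone targets had a median of -0.03 over 16, with 6 fitted values above 0. That count was 12 of 16 without WT mouse 1 (median 0.07) and 9 of 16 without WT mouse 3 or LSD1-mKO mouse 1. The list was not divided into genes that the hormone raises and genes that it lowers. Its median and count therefore give no direction of TR activity. Me1, the malic enzyme, was the only one at an unadjusted p under 0.05. It was at 104, 94.8 and 103 CPM in WT and at 105, 133 and 132 CPM in LSD1-mKO, with no overlap but with LSD1-mKO mouse 1 only just above WT mouse 1. Its log2 fold change was 0.30 (unadjusted p = 0.0255 by edgeR). The lipogenic gene Thrsp, at a log2 fold change of 0.48, Atp2a2, the slow fiber calcium pump, at 0.31, and the slow and fast myosins Myh7, at -0.05, and Myh2, at -0.25, had overlapping groups.

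LXR targets had fitted values below 0 for 8 of 13 tested genes, with a median of -0.15 and none at an unadjusted p under 0.05. Of all 12828 tested genes, 7027 were below 0. Abcg5 had 0 counts in every library. The lipogenic gene Fasn was at 30.6, 74.6 and 114 CPM in WT and at 48.5, 56.8 and 37.3 CPM in LSD1-mKO, and Apoe, which macrophages also express strongly, at 104, 220 and 227 CPM in WT and at 153, 136 and 110 CPM in LSD1-mKO. For both, WT mouse 1 was the lowest of all mice and WT mouse 3 the highest. Their log2 fold changes were -0.63 and -0.46, and those of the desaturase Scd1 and the lipid transfer protein Pltp were -0.43 and -0.32. Without WT mouse 3 the values were -0.15 for Fasn, -0.28 for Apoe and -0.04 for Scd1, and without WT mouse 2 the value for Pltp was -0.02. The macrophage markers were below 0 for 9 of 10 genes (median -0.59) and the fibroblast markers for 7 of 7 (median -0.58), and their part in the values of the LXR targets was not tested. Without WT mouse 1, 4 of 13 LXR targets were below WT at an unadjusted p under 0.05, against 7.98% of all genes, and none passed after adjustment. The median of the list was -0.31 without LSD1-mKO mouse 1, -0.02 without WT mouse 2 and -0.04 without WT mouse 3.

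Genes of retinoid metabolism, which make, carry or remove retinoids, among them ligands of the RXRs and their partners, had fitted values below 0 for 8 of 8 tested genes, with a median of -0.25 and none at an unadjusted p under 0.05. The lowest p was that of Aldh1a1, a retinaldehyde dehydrogenase, at 172, 105 and 147 CPM in WT and at 127, 84.7 and 99.2 CPM in LSD1-mKO (log2 fold change -0.45, unadjusted p = 0.0547 by edgeR). LSD1-mKO mice 2 and 3 were below every WT mouse and LSD1-mKO mouse 1 was not. Log2 fold changes were -0.53 for Aldh1a3, which makes retinoic acid, and -0.06 for both Dhrs3, which turns retinaldehyde back to retinol, and Cyp26b1, which breaks retinoic acid down and was singled out after its value was seen. Without WT mouse 2 the fitted values were below 0 for 6 of 8. WT mouse 1, the lowest for the fibroblast and macrophage markers in WT, was the highest for Aldh1a1, and the part of those cells in this list was not tested.

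Coregulators of the receptors had fitted values above 0 for 6 of 16 genes, with a median of -0.04. Nrip1, which encodes the corepressor RIP140, was at 22.8, 21.5 and 42.2 CPM in WT and at 18.3, 13.8 and 17.04 CPM in LSD1-mKO. Every WT mouse was higher than every LSD1-mKO mouse, and WT mouse 3 stood far above the rest (log2 fold change -0.82, unadjusted p = 0.0117 by edgeR). Without WT mouse 3 the log2 fold change of Nrip1 was -0.43, and it was -0.46 for Nr4a1. Ppargc1a, encoding the coactivator PGC-1α, was at 79.7, 48.2 and 59.0 CPM in WT and at 143, 58.3 and 75.5 CPM in LSD1-mKO, and LSD1-mKO mouse 1 alone was above the WT range. Its log2 fold change was 0.57, and 0.11 without that mouse. Ncor1, a corepressor, had a log2 fold change of 0.14 and Lpin1, a coactivator of PPARα, -0.18. Among 5 tested genes for other RXR partners, the orphan receptor Nr4a1 was at 92.2, 51.4 and 134 CPM in WT and at 43.1, 36.8 and 76.3 CPM in LSD1-mKO, which overlapped (log2 fold change -0.84, unadjusted p = 0.0493 by edgeR). The retinoic acid receptors Rara, at 0.12, and Rarg, at -0.05, had log2 fold changes near 0, and Nr4a2 -0.60.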

How the data were processed

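Per the labels, polyadenylated RNA from Sol was sequenced as 75-base single-end reads, and STAR and DESeq2 are named in the submitters' processing notes with the build mm10. The authors deposited estimated counts per gene, not normalized, with 8.33% to 9.94% of the values in each library not whole. The tool that counted reads, its annotation and its use of strand are not given in the sources used here. The authors' DESeq2 table of fold changes and p-values was not used. Columns were matched to mice by the numbers in their headings, and 0 columns belonged to other samples. No pair of libraries was as alike as repeated draws from 1 library (chi-square per gene at least 9.93).

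Counts were rounded and tested with edgeR 4.0.16 (TMM, filterByExpr, quasi-likelihood) run under R 4.3.3, and p-values over the 12828 genes tested were adjusted by Benjamini-Hochberg, with 0.05 as the threshold. Exact permutation tests used scipy 1.17.1. TPM used the length of the longest coding transcript per gene in GENCODE vM21, which shares its build with mm10 (24026 symbols, 99.7% of counts). Alternatives were DESeq2 1.42.0, limma 3.58.1 (voom), other normalizations and filters, the replicate number as a block, union exon lengths and each mouse left out. Genes too low to test are counted as not tested. Library totals set the counting precision, and PCR-amplified reads are not independent molecules. The procedures were tested on simulated data. The members and lists were chosen with earlier results of these data known. Named genes are the members, Kdm1a, listed genes that overlap a member, and from each list the 3 genes with the smallest unadjusted p and the 2 with the highest mean CPM, with genes at 0 counts named where they occurred. Some genes that meet this rule are not reported here.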

Additional observations from a re-analysis of the deposited data

How the results depend on the processing

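None of the members passed an adjusted p of 0.05 under any alternative, and 131 of 140 comparisons of a member with its own value under an alternative kept its sign. The fold of Ppara changed sign with limma voom (-0.000696) and with the replicate block (-0.00285), and ranged from -0.30 to 0.29 on the log2 scale with each mouse left out, including -0.20 without WT mouse 2 and -0.03 without WT mouse 3. Ppard ranged from -0.14 to 0.07, with 0.068 without WT mouse 1 and 0.065 without LSD1-mKO mouse 1, Pparg from -0.0528 (without LSD1-mKO mouse 2) to 0.0914, and Thrb from -0.0508 (without WT mouse 3) to 0.240. The cause was not tested. Over all genes, 33 were called higher and 9 lower with DESeq2, 2 higher with limma voom, and 8 higher and 3 lower without the filter on low counts. With each mouse left out, 1 to 2 were called higher (2 without WT mouse 1) and 0 to 1 lower. Of the pathway genes 1, Acot1, was called with DESeq2 (log2 fold change 1.17). At an unadjusted p under 0.05 in either direction there were 28 of the 100 pathway genes without WT mouse 1, against 14.4% of all genes (1885). There were 8 with library size alone, against 6.05%, and 11 without LSD1-mKO mouse 1, against 7.35%. Without WT mouse 3 or LSD1-mKO mouse 3, 536 and 494 of all genes were at that p. With union exon lengths, 3 of the 10 members kept their rank of TPM.

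Other named genes kept their sign and call in 449 of 462 comparisons. With each mouse left out, log2 fold changes that turned sign ranged from -0.179 to 0.0275 for Dhrs3, -0.423 to 0.0382 for Lpin1, -0.138 to 0.0621 for Myh7 (0.0233 without WT mouse 1), -0.102 to 0.313 for Rara and -0.180 to 0.245 for Rarg. Kdm1a kept its direction throughout.

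Mice with the same replicate number did not deviate together (correlations of -0.352, -0.107 and -0.15), so the numbers were not taken as pairs. With the replicate block 0 genes were called lower, against 1, since Kdm1a had an adjusted p of 0.299 (edgeR), and the block changed no other call of a named gene.

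With 3 mice per genotype the permutation tests between genotypes could not reach 0.05. The edgeR interval for the fold of Ppara, 0.625 to 1.61, is not a limit of detection. The smallest change of Ppara that would pass the adjusted threshold was not computed. Acot1, at a fold of 2.24, had an adjusted p of 0.281 (edgeR with Benjamini-Hochberg adjustment), so changes above 1.61-fold can also miss that threshold.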
